A study of Mus musculus with 6 samples.

Results

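The genes of 10 antigens used to sort or define long-term haematopoietic stem cells (LT-HSCs) were followed through 4 RNA-seq libraries of mouse bone marrow: Ly6a, Kit, Cd34, Flt3, Procr, Slamf1, Cd48, Cd27, Esam and Fgd5. They were chosen by name, matched by symbol to an Ensembl identifier, and are 10 of the 30409 genes in the deposited files. All 10 were found. The cells were sorted from C57BL/6 mice as Lineage–Sca1+cKit+CD34–Flk2–, so the products of Ly6a (Sca1), Kit (cKit), Cd34 and Flt3 (Flk2) formed the gate itself, while the other members had no part in it. Each of 4 groups held 1 library: wild type and Twist1 cKO (a conditional knockout of the basic helix-loop-helix transcription factor gene Twist1) without treatment, called steady state here, and the same 2 genotypes 12 days after irradiation. The sources used here do not give the Cre driver of the cKO, the radiation dose, the age of the mice or the number of mice behind a library. The series also has 2 ATAC-seq samples of irradiated cells, which were not analysed here.

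Blood-forming stem cells have no single marker and are sorted by combinations of surface proteins. Sca1, a GPI-anchored protein of the Ly6 family, and Kit, the receptor tyrosine kinase for stem cell factor, are carried by stem cells and early multipotent progenitors, and the absence of CD34 and of Flt3, the receptor for Flt3 ligand, narrows this population to cells that sustain blood formation over the long term in adult mice. CD150 (Slamf1) without CD48, the endothelial protein C receptor EPCR (Procr) and the junctional adhesion protein ESAM mark long-term stem cells more sharply, and CD27 is a TNF receptor family member found on multipotent cells. Fgd5 encodes an intracellular guanine nucleotide exchange factor for Cdc42, not a surface protein, and its locus has been used as a stem cell reporter. A transcript level is not a surface protein level, so a cell may pass the gate at a low transcript level.

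The 4 members below are shown with their promoter windows because they are the gate antigens Kit, Cd34 and Flt3 and the SLAM antigen Slamf1, each with a window that ends at the annotated 5′ end of the gene (for Slamf1, 1 base inside it). Each window holds the 250 bases before the start in RefSeq GRCm38.p6, printed 5′ to 3′ on the strand of the gene. Windows for 8 of the 10 members were matched by symbol, and Ly6a and Esam were not among them. Capitals mark an E-box (CANNTG, the class of site that basic helix-loop-helix factors such as Twist1 bind) or GATAA on either strand.
Kit, chr5:75574737-75574986, plus strand: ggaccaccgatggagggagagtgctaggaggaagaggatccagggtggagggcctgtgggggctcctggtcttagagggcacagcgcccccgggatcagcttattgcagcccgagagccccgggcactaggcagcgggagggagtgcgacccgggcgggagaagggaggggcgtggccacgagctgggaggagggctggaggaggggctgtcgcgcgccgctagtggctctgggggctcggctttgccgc
Cd34, chr1:194938571-194938820, plus strand: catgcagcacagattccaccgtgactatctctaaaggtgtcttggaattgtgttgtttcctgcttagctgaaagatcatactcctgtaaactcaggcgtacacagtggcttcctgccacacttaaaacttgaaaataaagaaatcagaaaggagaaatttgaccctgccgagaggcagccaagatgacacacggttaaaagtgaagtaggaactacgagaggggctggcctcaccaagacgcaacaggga
Flt3, chr5:147400490-147400739, minus strand: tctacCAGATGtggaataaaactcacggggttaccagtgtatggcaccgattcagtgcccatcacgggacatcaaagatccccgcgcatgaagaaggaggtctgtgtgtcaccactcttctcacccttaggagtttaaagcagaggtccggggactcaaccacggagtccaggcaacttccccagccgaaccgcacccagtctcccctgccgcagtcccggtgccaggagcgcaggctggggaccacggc
Slamf1, chr1:171766882-171767131, plus strand: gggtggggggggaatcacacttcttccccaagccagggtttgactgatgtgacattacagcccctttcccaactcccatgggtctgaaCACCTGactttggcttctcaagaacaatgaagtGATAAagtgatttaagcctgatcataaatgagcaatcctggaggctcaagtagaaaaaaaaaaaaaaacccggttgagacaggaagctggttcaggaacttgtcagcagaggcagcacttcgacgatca
Neither the Kit nor the Cd34 window held an E-box or GATAA. The Flt3 window held 1 E-box, 245 bases before the start, and the Slamf1 window held 1 E-box at 162 bases and 1 GATAA at 129 bases before it. Of the other members, Procr had 1 E-box, Cd48 had 1, Cd27 had 3 and Fgd5 had none. Procr also held CGGAAG (an ETS-type site) and Cd48 held TGTGGT (a RUNX-type site), which overlaps its E-box. Over 32851 promoter windows of the same length, 66.2% held an E-box, 22.6% GATAA, 13.6% CGGAAG and 14.0% TGTGGT on either strand. These matches describe the letters of the windows alone.

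The values are FPKM, which correct a read number for the length of the gene and the size of the library, so levels can be compared between genes. Reads recovered from them summed to between 20349074 and 25099868 per library, and gave 95% counting intervals for each FPKM (Clopper-Pearson) and each ratio of FPKM (conditional exact binomial). These intervals cover counting error only. There is no replicate behind any difference, and no p-value is given. Twist1 itself had 6 and 5 reads in the wild-type libraries at steady state and after irradiation, against 2 and 0 in the cKO libraries, which is too shallow to check the genotype. Xist was below 0.02 FPKM in both steady-state libraries and at 1.003 and 0.573 FPKM in the irradiated ones, and the Y-linked Ddx3y was at 10.2 and 12.4 FPKM against 0.0521 and 0.0164. The sex-linked transcripts thus divided the libraries exactly as irradiation did, and sex and irradiation cannot be told apart.

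**Figure D1:**
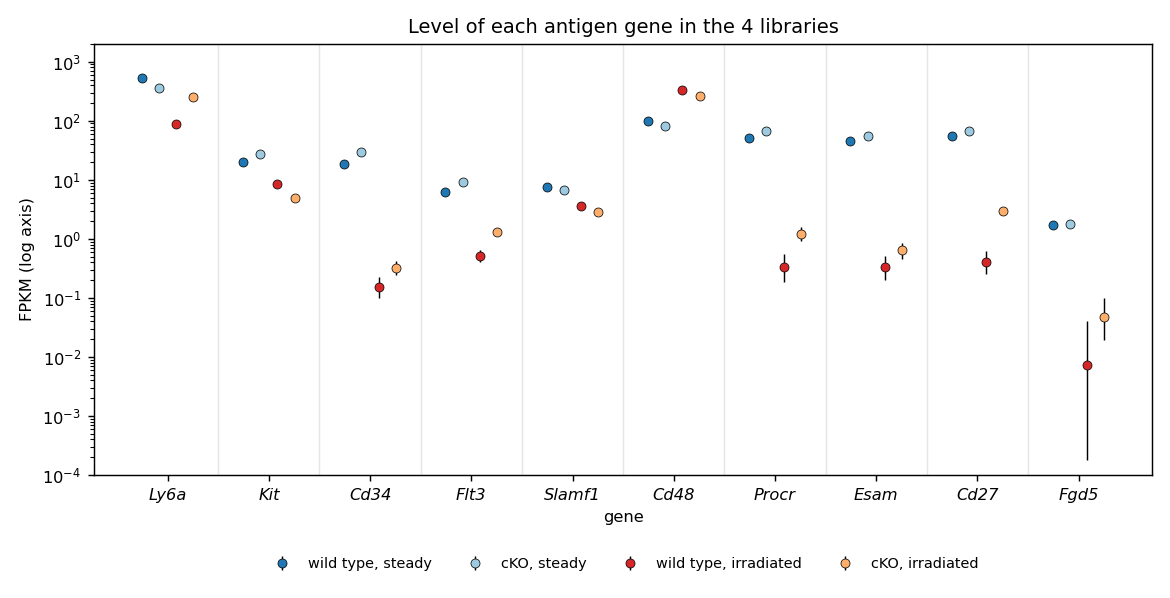
FPKM of the 10 members (log scale) in the 4 libraries, with 95% counting intervals as bars. Ly6a and Cd48 stayed above 80 FPKM in each library, while Procr, Esam, Cd27, Cd34 and Fgd5 stood below 3 FPKM in both irradiated libraries.

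At steady state the wild-type library held all 10 transcripts, and Ly6a was the highest at 534 FPKM, above 99.6% of all genes. Cd48, whose product is absent from the surface of the most stringently sorted stem cells, came second at 100.3 FPKM. Cd27 (54.8 FPKM) and Procr (51.3) had overlapping intervals, and Esam (45.4), Kit (20.1), Cd34 (18.4), Slamf1 (7.41), Flt3 (6.26) and Fgd5 (1.69) followed with intervals that did not overlap. Transcripts of both negative gate antigens were therefore present: Cd34 stood at 0.916 times the FPKM of Kit (0.876 to 0.957) in this library. The steady-state cKO library kept the order of the first 5 members, whereas Cd34 (29.2 FPKM) stood above Kit (27.6) and Flt3 (9.32) above Slamf1 (6.82). Both steady-state libraries also held other markers of long-term stem cells, such as the transcription factor genes Hlf (17.4 and 17.7) and Mecom (3.83 and 4.44). Genes of committed cells were present as well. Immunoglobulin genes took 14.7% and 9.87% of recovered reads at steady state (wild type and cKO), and 2.71% and 8.87% after irradiation. The myeloperoxidase gene Mpo stood at 181 and 157 FPKM at steady state, and at 2.73 and 15.4 after irradiation.

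In most positive stem cell markers outside the gate, the irradiated libraries went against the stem cell label at the transcript level. Their low levels of Cd34 and Flt3 went with the CD34–Flk2– part of the gate. In the wild-type library the order became Cd48 (337 FPKM), Ly6a (89.1), Kit (8.52) and Slamf1 (3.65), and then Flt3 (0.519), Cd27 (0.407), Procr (0.333), Esam (0.331) and Cd34 (0.155), which overlapped from each to the next, with Fgd5 at a single read. In the cKO library Cd48 (259 FPKM) and Ly6a (256) overlapped at the top, followed by Kit (4.98), Cd27 (2.97), Slamf1 (2.81), Flt3 (1.32), Procr (1.22), Esam (0.640), Cd34 (0.322) and Fgd5 (0.0474). Cd27 and Slamf1 overlapped there, as did Flt3 and Procr. Hlf was at 0.0608 and 0.102 FPKM in the 2 irradiated libraries, and Mecom at 0.109 and 0.106. The 10 members together took 0.159% and 0.177% of the reads at steady state (wild type and cKO) and 0.0549% and 0.0806% after irradiation. These libraries are called irradiated below by their label.

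Differences between libraries were taken on the log2(FPKM + 1) scale, which understates the change of low genes, and a gene counted as higher or lower at 2-fold or more among the 11505 genes with a mean of at least 1 FPKM over the 4 libraries. Fgd5, with a mean of 0.884 FPKM, missed that minimum, so counts run over 9 members. After irradiation in wild type, 7 of 9 members were lower, against 18.8% of all genes, and 1 was higher, against 14.9%. The median difference of the 9 members was -2.57, against -0.01 for all genes. In the cKO, 7 of 9 members were lower after irradiation (21.3% of all genes) and 1 was higher (9.51%), with a median of -2.26 against -0.27. Cd48 was the member that was higher in both genotypes, and the member in neither count was Slamf1 in wild type and Ly6a in the cKO. Slamf1 lay close to the 2-fold line in both. Its -0.85 in wild type became -1.0015 with a pseudocount of 0.1 and -1.03 with scaling to recovered read totals (8 members lower in each), and its -1.04 in the cKO became -0.83 with median-of-ratios scaling (6 lower). The irradiated libraries are pools of sorted cells, in which fewer cells of a type and less RNA per cell cannot be told apart.

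**Figure D2:**
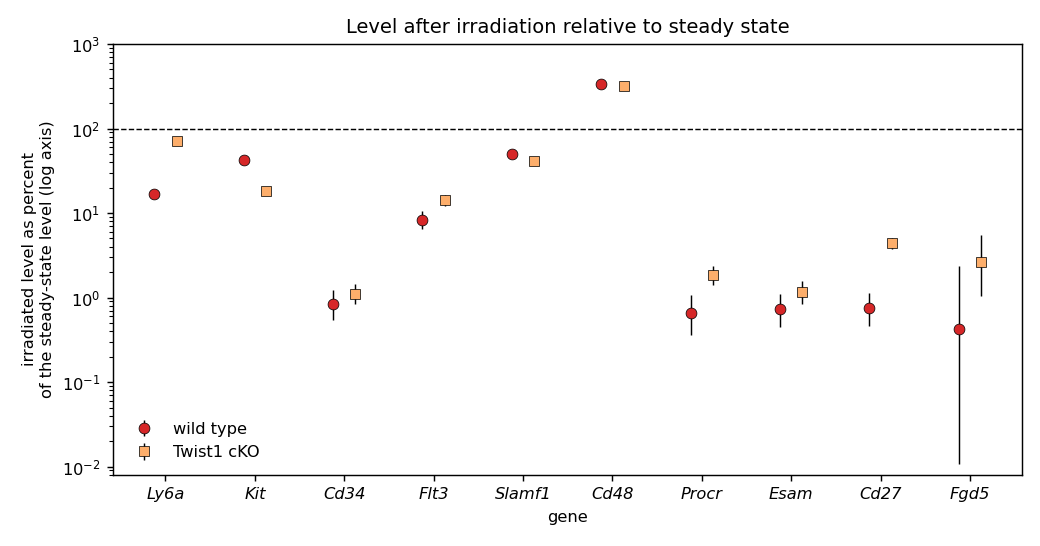
Irradiated level of the members relative to steady state in wild type and in the cKO. On the log2(FPKM + 1) scale the differences of Procr, Esam, Cd27 and Cd34 were the lowest in both, and Cd48 alone was above 0. The cKO difference stood furthest above the wild-type one for Ly6a and Cd27, and furthest below it for Kit.

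Ly6a (ENSMUSG00000075602, chromosome 15, 74994877 to 74998031 in GRCm38.p6), the gene of the positive gate antigen Sca1, stood at 534 FPKM in wild type and 362 in the cKO at steady state, against 89.1 and 256 FPKM in the irradiated libraries. The wild-type library was the higher of the pair at steady state and the cKO library the higher after irradiation. After irradiation the wild-type level was 16.7% of the steady-state level, or 5.99-fold lower (5.74 to 6.25), and the cKO level was 70.7%, or 1.41-fold lower (1.37 to 1.46). In the cKO, Ly6a was 1.47-fold lower than in wild type at steady state (1.44 to 1.51) and 2.87-fold higher after irradiation (2.74 to 3.01).

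Kit (ENSMUSG00000005672, chromosome 5, 75574987 to 75656722), the other positive gate antigen, had the opposite pattern. Its levels were 20.1 FPKM in wild type and 27.6 in the cKO at steady state, against 8.52 and 4.98 FPKM in the irradiated libraries. The cKO library was thus the highest of the 4 before irradiation and the lowest after it. After irradiation Kit was 2.36-fold lower in wild type (2.23 to 2.50) and 5.55-fold lower in the cKO (5.19 to 5.93). The cKO level was 1.37-fold higher than wild type at steady state (1.32 to 1.43) and 1.71-fold lower after irradiation (1.58 to 1.85). Kit is also carried by mast cells, and of 7 mast cell and basophil markers past the minimum, 5 were lower and 1 higher after irradiation in wild type, and 3 lower and 0 higher in the cKO. All 10 markers of that list, those below the minimum included, summed to 66.8 and 56.6 FPKM at steady state, against 8.01 and 14.8 in the irradiated libraries, with Tpsb2 at 0 in irradiated wild type, and the part of such cells in the Kit values was not tested.

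The ratio of the 2 positive gate transcripts within a library does not depend on how libraries were scaled. Ly6a stood at 26.6 times the FPKM of Kit in steady-state wild type (25.7 to 27.4) and at 13.1 times in the steady-state cKO (12.7 to 13.5). After irradiation the ratio was 10.5 in wild type (9.82 to 11.1) and 51.4 in the cKO (48.1 to 54.9). The cKO library had the lower ratio at steady state and the higher one after irradiation, with intervals that did not overlap in either condition.

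Cd34 (ENSMUSG00000016494, chromosome 1, 194938821 to 194961292), which encodes a sialomucin and is a negative gate antigen, stood at 18.4 FPKM in wild type and 29.2 in the cKO at steady state, against 0.155 and 0.322 FPKM in the irradiated libraries, where it rested on 25 and 55 reads. Both irradiated libraries were far below both steady-state ones: the level was 119-fold lower in wild type (80.3 to 184) and 90.8-fold lower in the cKO (69.6 to 121). The cKO library was the higher of the pair in each condition, 1.59-fold at steady state (1.52 to 1.66) and 2.08-fold after irradiation (1.27 to 3.48). Flt3 (ENSMUSG00000042817, chromosome 5, 147330741 to 147400489), the other negative gate antigen, stood at 6.26 FPKM in wild type and 9.32 in the cKO at steady state, against 0.519 and 1.32 FPKM in the irradiated libraries. Flt3 was again higher in the cKO in both conditions, 1.49-fold (1.37 to 1.62) and 2.54-fold (1.92 to 3.39). Irradiated libraries held 12.1-fold less Flt3 in wild type (9.47 to 15.6) and 7.07-fold less in the cKO (6.07 to 8.26). Per unit of Kit, transcripts of both negative antigens were scarcer after irradiation in wild type. Kit stood at 1.09 times Cd34 and 3.21 times Flt3 in steady-state wild type, and at 55.0 times Cd34 (37.1 to 85.2) and 16.4 times Flt3 (12.9 to 21.1) in irradiated wild type. In the cKO the same ratios were 0.945 and 2.96 at steady state and 15.5 (11.8 to 20.7) and 3.77 (3.23 to 4.43) after irradiation. Flt3 also marks dendritic cell precursors, and the summed level of 14 macrophage and dendritic cell markers was 2545 FPKM in wild type and 1343 in the cKO at steady state, with 1373 and 2668 in the irradiated pair. The cKO library was thus the lower of the pair for these markers at steady state, where it was the higher for Flt3. After irradiation it was the higher of the pair for both. Of 12 past the minimum, 8 were higher and 0 lower after irradiation in the cKO (median 1.71), where Flt3 was lower. In wild type 3 of them were lower and 2 higher after irradiation (median -0.80), where Flt3 was lower too. In the irradiated pair 5 were higher in the cKO and 0 lower (median 0.91). The part of such cells in the Flt3 values was not tested.

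Slamf1 (ENSMUSG00000015316, chromosome 1, 171767131 to 171801184) and Cd48 (ENSMUSG00000015355, chromosome 1, 171681245 to 171705258) encode a pair of SLAM family receptors that are read against each other in sorting, and their genes lie 61.9 kb apart in 1 cluster. Slamf1 stood at 7.41 FPKM in wild type and 6.82 in the cKO at steady state, against 3.65 and 2.81 FPKM in the irradiated libraries. It was lower after irradiation in both genotypes, 2.03-fold (1.83 to 2.26) and 2.43-fold (2.17 to 2.73) on the FPKM scale, the smallest difference among the lower members in wild type. Cd48 stood at 100.3 FPKM in wild type and 81.3 in the cKO at steady state, against 337 and 259 FPKM in the irradiated libraries. Both irradiated libraries were above both steady-state ones, 3.36-fold in wild type (3.22 to 3.50) and 3.18-fold in the cKO (3.04 to 3.34). The neighbouring genes therefore moved in opposite directions, and Cd48 stood at 13.5 times Slamf1 in steady-state wild type (12.6 to 14.5), 11.9 times in the steady-state cKO (11.1 to 12.8), 92.1 times in irradiated wild type (84.2 to 101.0) and 92.3 times in the irradiated cKO (83.5 to 102.2). The ratio was close between genotypes in each condition, with overlapping intervals. Cd48 is carried by most committed blood cells, and 14 of 15 erythroid markers were also higher in both irradiated libraries, as given below.

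Procr, Esam, Cd27 and Fgd5, like Slamf1, had no part in the gate and are used as positive markers of stem cells. These 4 stood at 2.97 FPKM or below in both irradiated libraries. Slamf1 stood above them at 3.65 FPKM in irradiated wild type. In the irradiated cKO it stood at 2.81 FPKM, where Cd27 (2.97) overlapped it. Procr (ENSMUSG00000027611, chromosome 2, 155751125 to 155755478) stood at 51.3 FPKM in wild type and 66.1 in the cKO at steady state, against 0.333 and 1.22 FPKM (15 and 58 reads) in the irradiated libraries. This was a 154-fold lower level in wild type (93.1 to 275) and a 54.3-fold lower level in the cKO (41.9 to 71.7). Esam (ENSMUSG00000001946, chromosome 9, 37528089 to 37538319) stood at 45.4 and 54.6 FPKM at steady state, against 0.331 and 0.640 FPKM (21 and 43 reads) in the irradiated libraries in the same order of genotypes. It was 137-fold lower in wild type (89.6 to 222) and 85.4-fold lower in the cKO (63.3 to 118). Procr stood at 1.13 times Esam in steady-state wild type (1.07 to 1.19) and at 1.21 times in the steady-state cKO (1.16 to 1.27). After irradiation the ratio was 1.01 in wild type, with a wide interval (0.484 to 2.05), and 1.90 in the cKO (1.26 to 2.89).

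Cd27 (ENSMUSG00000030336, chromosome 6, 125232620 to 125237136) stood at 54.8 FPKM in wild type and 67.8 in the cKO at steady state, against 0.407 and 2.97 FPKM (21 and 162 reads) in the irradiated libraries. The 2 genotypes were thus closer before irradiation than after it. Cd27 was 135-fold lower after irradiation in wild type (87.9 to 218) and 22.8-fold lower in the cKO (19.5 to 26.9), and the irradiated cKO level was 7.29-fold that of irradiated wild type (4.61 to 12.1). CD27 is also carried by T, B and NK cells. Of 11 T and NK cell markers past the minimum, 6 were at least 2-fold higher in the irradiated cKO than in irradiated wild type and 0 lower, with a median difference of 1.11. The same held for 3 of 10 B and plasma cell markers, with 0 lower and a median of 0.77. The summed level of all 13 T and NK cell markers was 384 and 380 FPKM at steady state, 91.3 in irradiated wild type and 155 in the irradiated cKO. Most of each sum was Nkg7, at 318, 325, 75.6 and 98.2 FPKM in that order of libraries. Cd3g stood at 2.69, 2.11, 1.60 and 7.89 FPKM, and Trbc1 at 29.1, 23.1, 1.45 and 7.51 FPKM. The part of such cells in the Cd27 values was not tested. Fgd5 (ENSMUSG00000034037, chromosome 6, 91978827 to 92076005) stood at 1.69 FPKM in wild type and 1.79 in the cKO at steady state, and at 1 and 7 reads after irradiation. Its cKO level after irradiation was 2.65% of the steady-state level, or 37.7-fold lower (18.1 to 94.6). In wild type it was 0.424%, and 1 read leaves the interval at 41.9-fold to 9341-fold lower.

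Between genotypes at steady state, no member differed by 2-fold. Of 9 members 0 were higher, against 0.748% of all genes, and 0 were lower, against 1.95%. Differences below that size went in both directions. Cd34, Flt3, Kit, Procr, Cd27 and Esam were higher in the cKO library by 1.59-fold to 1.20-fold, and Ly6a and Cd48 were lower. Procr was 1.29-fold higher (1.22 to 1.36), Cd27 1.24-fold (1.18 to 1.30) and Esam 1.20-fold (1.15 to 1.26), and Cd48 stood at 0.810 of wild type (0.768 to 0.855). Slamf1 at 0.920 of wild type (0.846 to 1.001) and Fgd5 at 1.06 (0.893 to 1.25) did not differ beyond counting error. The median of the 9 members was 0.30 on the log2 scale, against 0.02 for all genes.

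In the irradiated pair, 2 of 9 members were at least 2-fold higher in the cKO, against 3.73% of all genes, and 0 were lower, against 0.782%. The 2 were Ly6a and Cd27, with log2 differences of 1.51 and 1.50. The median of all genes stood at -0.31 in this comparison. Relative to it, Ly6a was higher by 1.82, Cd27 by 1.80, Procr by 1.04, Flt3 by 0.92, Esam by 0.61 and Cd34 by 0.50, while Cd48 at -0.07 and Slamf1 at 0.02 lay next to the median and Kit stood at -0.36. On the plain FPKM scale Procr was 3.65-fold higher (2.04 to 6.94) and Esam 1.93-fold higher (1.12 to 3.43) in the irradiated cKO, from few reads. Slamf1 and Cd48 had almost the same ratio, 0.768 (0.672 to 0.877) and 0.769 (0.746 to 0.794) of wild type. Fgd5, with 7 reads against 1, had a ratio of 6.61 with an interval from 0.849 to 298. Of 19 other stem cell surface genes past the minimum, 0 were higher and 0 lower in the irradiated cKO, with a median of 0.12.

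**Figure D3:**
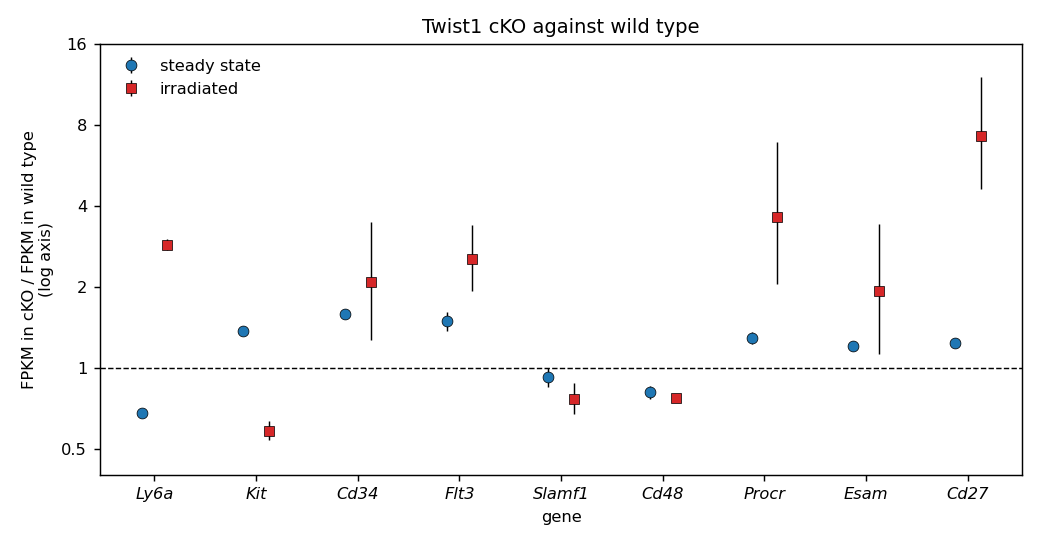
Level of the members in the cKO relative to wild type at steady state and after irradiation (Fgd5 was below the minimum used for counts). On the log2(FPKM + 1) scale Ly6a went from -0.56 to 1.51 and Kit from 0.44 to -0.67. Cd48 and Slamf1 were below 0 on that scale in both conditions.

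The difference of the 2 genotype differences, irradiated minus steady state, was at least 2-fold for 3 of 9 members. It was higher for 2, Ly6a at 2.07 and Cd27 at 1.19, against 5.72% of all genes, and lower for 1, Kit at -1.11, against 1.63%. For Ly6a and Kit the cKO library lay on opposite sides of wild type in the 2 conditions, beyond counting error in each. Cd27 was higher in the cKO in both. Flt3 (0.10), Esam (0.04), Fgd5 (0.01), Cd48 (-0.08) and Slamf1 (-0.18) were near 0 on this scale, although the median of all genes was -0.32. With a pseudocount of 0.1 in place of 1, which gives more weight to low levels, Flt3 stood at 0.63, Esam at 0.51 and Fgd5 at 0.38, and Procr went from 0.37 to 1.24, which made 3 members higher. Kit crossed the 2-fold line when libraries were scaled to recovered read totals, at -0.93, where 0 members were lower.

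Genes of the same pathways and families were taken from lists to see which of them varied with the members. Among 19 other stem cell surface genes, 15 were lower in wild type and 14 in the cKO after irradiation, and 0 were higher in either, with medians of -2.14 and -1.90. Among the furthest in wild type were the integrin Itga2b (-3.89), the adhesion receptor Adgrg1 (-3.58, from 243 to 19.5 FPKM) and the angiopoietin receptor family member Tie1 (-3.44). Of 26 stem cell genes with nuclear or cytoplasmic products, 23 were lower and 1 higher in wild type (median -2.31), and 22 lower and 0 higher in the cKO (median -2.82). Myct1 went from 86.3 to 0.179 FPKM in wild type and from 85.1 to 0.108 in the cKO, and the Myc family gene Mycn from 39.2 to 0.0960 and from 38.9 to 0.142. The gene that was higher in wild type was Gfi1b, a repressor needed for red cell and platelet formation, at 73.5 and 175 FPKM. At steady state neither list held a gene at least 2-fold apart between genotypes, with medians of 0.17 and 0.02.

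Of 12 ligands, kin and signalling genes of Kit and Flt3 past the minimum, 1 was lower after irradiation in wild type (18.8% of all genes) and 5 in the cKO (21.3% of all genes), and 0 were higher, with medians of -0.56 and -0.77. The phosphoinositide 3-kinase subunit Pik3r1 was the one in wild type (8.43 to 1.66 FPKM). In the cKO, Stat5a, Stat5b, the adaptor Sh2b3 and the phosphatase Ptpn6 joined it, with log2 differences of -1.05 to -1.21. On the log2(FPKM + 1) scale neither genotype comparison held a gene of this list at least 2-fold apart (medians 0.02 and -0.20). The difference of differences was at least 2-fold higher for 1 gene of the list and lower for 0. Csf1r, the macrophage receptor of the same kinase class as Kit and Flt3, was lower in the cKO at steady state and higher after irradiation: 7.58 FPKM in wild type and 3.47 in the cKO at steady state, against 3.56 and 7.93 in the irradiated libraries. On the log2(FPKM + 1) scale its differences were -0.94 and 0.97, just inside the 2-fold line, and its difference of differences was 1.91. Of 12 partners and kin of Procr, Cd34, Esam, Cd27 and Fgd5, 5 were lower and 2 higher after irradiation in wild type (median -0.86), 6 lower and 1 higher in the cKO (median -0.90), and 0 were apart between genotypes in either condition (medians 0.09 and -0.15). The junctional protein F11r went from 28.4 to 0.441 FPKM in wild type and from 29.9 to 1.33 in the cKO, and F2r, the thrombin receptor through which EPCR-bound protein C signals, from 29.7 to 7.59 and from 31.5 to 8.39. Podxl, a sialomucin of the CD34 family, was higher instead, at 1.71 and 14.2 FPKM in wild type and 1.76 and 8.12 in the cKO, as was the CD27-binding protein gene Siva1 in wild type (175 and 428 FPKM).

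No other SLAM family gene past the minimum was 2-fold higher after irradiation, as Cd48 was. Of 9 past the minimum, 3 were lower and 0 higher after irradiation in wild type (median -0.40), and 1 lower and 0 higher in the cKO (median 0.69). Slamf7, next to Cd48 on chromosome 1, went from 17.6 to 4.16 FPKM in wild type and from 9.18 to 9.30 in the cKO, and Cd84, next to Slamf1, from 11.8 to 2.42 and from 11.5 to 3.63. Between genotypes 1 was lower at steady state (median -0.39) and 1 higher after irradiation (median 0.53). The difference of differences was at least 2-fold higher for 5 and lower for 0, with a median of 1.06, while both Cd48 and Slamf1 were slightly below 0.

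Several genes of the Ly6 family were lowest in irradiated wild type, like Ly6a. Ly6a aside, 15 of the list were in the files and 8 were past the minimum, and the summed level of the 15 was 1194 FPKM in wild type and 789 in the cKO at steady state, against 429 and 487 in the irradiated libraries. Ly6c2, a monocyte antigen gene 110.1 kb from Ly6a, stood at 306, 165, 9.31 and 29.2 FPKM in that order of libraries, and Ly6d, an early B-lineage antigen gene, at 314, 149, 51.6 and 118. Ly6i, 11.4 kb from Ly6a, stood at 5.95, 3.70, 1.05 and 3.76 FPKM, and Ly6k at 8.29, 5.93, 0.763 and 2.06. Each of these 4 was lower in the cKO at steady state and higher in the cKO after irradiation. Ly6c2 was 1.86-fold lower in the cKO at steady state (1.81 to 1.90) and 3.13-fold higher after irradiation (2.85 to 3.45). For Ly6d the same comparisons gave 2.11-fold lower (2.02 to 2.21) and 2.28-fold higher (2.102 to 2.471). The difference of differences was higher by at least 2-fold for 4 of 8, by 2.44 for Ly6c2, 2.25 for Ly6d, 1.78 for Ly6i and 1.22 for Ly6k, and lower for 1, the neutrophil antigen gene Ly6g at -1.06. Ly6e, the most abundant of the family and 35.0 kb from Ly6a, did not share it: 533, 439, 323 and 298 FPKM, with a difference of differences of 0.16. Over the list, 5 were lower and 0 higher after irradiation in wild type (median -1.77), and 3 lower and 0 higher in the cKO (median -0.56). Between genotypes 1 was higher and 1 lower at steady state (median -0.35), and 3 higher and 0 lower after irradiation (median 0.60). Some Ly6 genes are near copies of each other and the sources used here do not say how shared reads were counted, so their separate levels are uncertain.

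**Figure D4:**
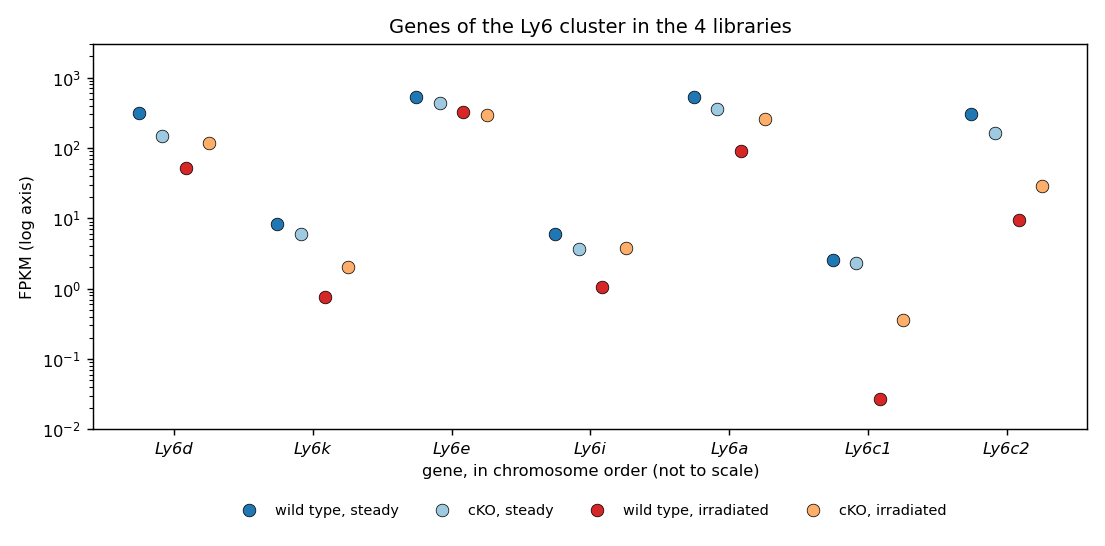
FPKM (log scale) of Ly6a and other Ly6 family genes in the 4 libraries, with Ly6g not drawn. Ly6a, Ly6c2, Ly6d, Ly6i and Ly6k dip in irradiated wild type and stand higher in the irradiated cKO, while Ly6e is at 533 FPKM in steady-state wild type and at 323 and 298 in the irradiated libraries.

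Markers of other blood cells also differed between the libraries, and are given here beside the members they vary with. Erythroid markers were higher after irradiation in 14 of 15 cases in each genotype and lower in 0, with medians of 1.79 and 2.58, and summed to 4162 and 2755 FPKM at steady state, against 14208 and 17118 in the irradiated libraries. Rhag went from 16.5 to 178 FPKM in wild type and from 17.1 to 127 in the cKO. Of 9 megakaryocyte markers 7 were lower in wild type and 8 in the cKO, and 0 were higher, with medians of -3.76 and -3.23. Sorting excludes cells with mature lineage antigens, and of 12 genes of such antigens 2 were higher and 3 lower after irradiation in wild type, and 7 higher and 1 lower in the cKO (medians -0.45 and 1.26). Their difference of differences was higher for 8 and lower for 1. Of 15 committed progenitor genes, 5 were higher and 8 lower in wild type and 6 higher and 7 lower in the cKO (medians -1.32 and -0.37). Their part in the higher Cd48 and the lower Procr, Esam and Cd34 was not tested.

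Beside the genotype pattern of Ly6a, macrophage and dendritic cell markers were lower in the cKO at steady state in 9 of 12 cases and higher after irradiation in 5 of 12, with medians of -1.36 and 0.91 and none in the opposite direction. B and plasma cell markers had medians of -0.43 and 0.77 in the same comparisons, with 1 of 10 lower at steady state, and all 13 of the list summed to 5789, 3265, 1618 and 4638 FPKM in steady-state wild type, steady-state cKO, irradiated wild type and irradiated cKO. The plasma cell gene Jchain made up 87.4% of that sum in steady-state wild type and 91.9% in the irradiated cKO, and Pax5 was at 0 in irradiated wild type. Erythroid markers had medians of -0.41 and 0.85. Of 15, 4 were lower and 0 higher in the cKO at steady state, and 6 were higher and 1 lower after irradiation. Medians also changed sign for committed progenitor genes (-0.33 and 0.52) and mature lineage antigens (-0.30 and 0.85), as for the SLAM family above. Neutrophil markers were higher in the cKO in both conditions, 5 of 9 at steady state and 8 of 9 after irradiation, and so did not follow Ly6a. Of 26 interferon-induced genes, a class that includes Ly6a as an interferon-responsive gene, 0 were apart between genotypes at steady state (median -0.02), and 1 was higher and 0 lower after irradiation (median 0.17). After irradiation 12 of these 26 were lower in each genotype, with 1 higher in wild type and 5 in the cKO. The part of other cells in the Ly6a values was not tested.

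Endothelial cells carry CD34, ESAM, EPCR and FGD5 too. Of 7 endothelial markers past the minimum, 5 were lower and 0 higher after irradiation in each genotype, with medians of -2.14 and -2.02, and 0 were apart between genotypes. The 5 lower genes, Pecam1, Tie1, Tek, Emcn and Robo4, were also in the list of other stem cell surface genes, so the 2 lists are not separate. Plvap and Egfl7 were not in that list. In wild type Plvap stood at 8.10 FPKM at steady state and 9.12 after irradiation, and Egfl7 at 17.2 and 28.4. In the cKO Plvap stood at 5.68 and 7.49 FPKM, and Egfl7 at 17.5 and 19.6. All 12 endothelial markers, those below the minimum included, summed to 52.7 and 54.8 FPKM at steady state, against 39.3 and 30.4 in the irradiated libraries, where Egfl7, which blood cells also express, made up 72.4% and 64.4%. The defining junction gene Cdh5 was at 0 in irradiated wild type. Of 8 stromal markers 4 were lower and 3 higher after irradiation in wild type, and 3 lower and 2 higher in the cKO. The part of endothelial cells in the member values was not tested. Of 13 reference genes, 1 was higher and 0 lower after irradiation in wild type (median 0.60), 0 were apart in the cKO (median 0.01), and 0 were apart between genotypes at steady state (median -0.08) or after irradiation (median -0.51).

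**Figure D5:**
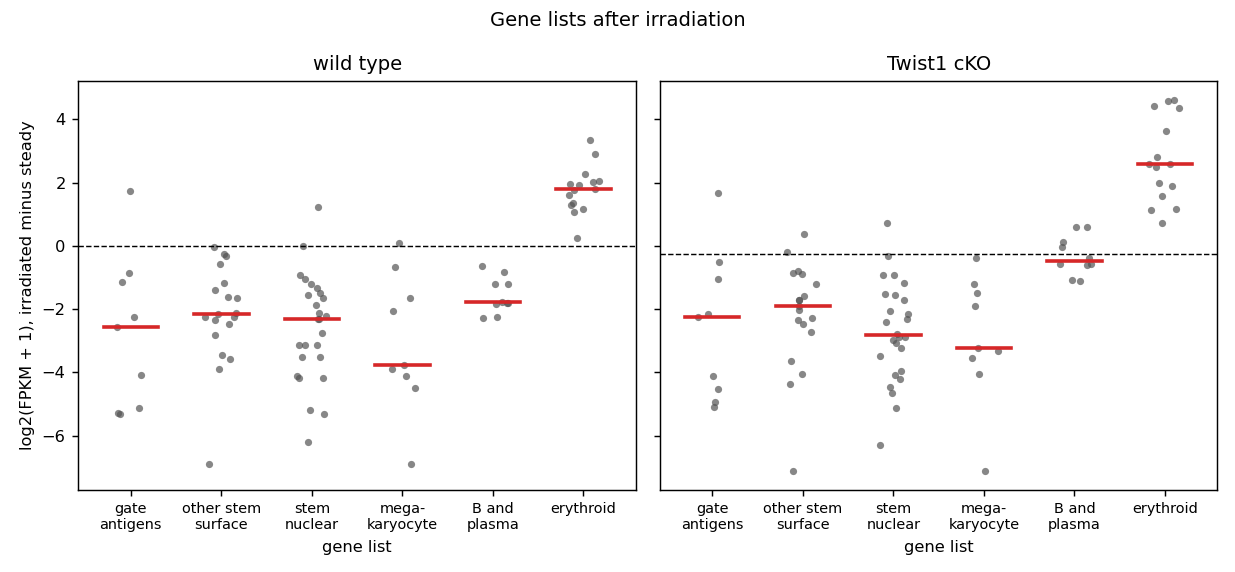
Irradiated minus steady-state differences on the log2(FPKM + 1) scale for the genes past the minimum in each list, in wild type and in the cKO, with red lines at list medians and dashed lines at the median of all genes. Stem cell and megakaryocyte lists sit low, with medians from -1.90 to -3.76, and the erythroid list sits high, at 1.79 and 2.58.

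The genes with the most similar profiles over the 4 libraries were found by the Euclidean distance between log2(FPKM + 1) values, each centred on its own mean, among 6588 genes with a mean of at least 5 FPKM. With 4 libraries many genes lie close, and the distances are a description. Nearest to Ly6a were the predicted gene Gm5547 (0.24), Gm8818 (0.31), the immunoglobulin segments Iglv1 (0.32) and Igkj3 (0.35), and Derl3 (0.35), which acts in the degradation of misfolded secretory proteins. Nearest to Kit were the immediate early gene Ier2 (0.13), Muc13 (0.15), Zfp358, the ERK1 kinase gene Mapk3 and Cdk17. Nearest to Cd48 were an unnamed gene, the erythropoietin receptor Epor (0.11, at 26.3, 20.7, 92.4 and 64.1 FPKM), Smim1, Necap2 and Kcng2. Slamf1 had the closest match of all, the pre-B cell receptor component Vpreb1 at 0.06, followed by F8a, Slc17a5, Pold4 and Gnai2.

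For the members at the lowest levels after irradiation, 1 member appeared among the neighbours of another, Esam beside Procr. Procr lay nearest to Gpr171 (0.17), Ldhb (0.29), Pdzk1ip1 (0.30), Esam (0.31) and Krt18. Esam lay nearest to Igkv1-132, Gm20467, Krt18 (0.24), Mycn and Ldhb. Cd34 lay nearest to Ighv2-5, the scavenger receptor gene Scarf1 (0.27), Afap1l1, Gcnt2 and Trim47. Cd27 had no close match: Igkv4-78, Gpr171 (0.52), Cxxc5, Fcnb and the myeloperoxidase gene Mpo (0.64). Among pairs of all 10 members the closest were Procr and Esam at 0.31, Slamf1 and Fgd5 at 0.54, Kit and Fgd5 at 0.65, and Procr and Cd27 at 0.67. Cd34 and Esam at 0.86 and Kit and Slamf1 at 0.89 came next. The log2(FPKM + 1) scale shrinks the differences of Fgd5, which stood at 1.69 and 1.79 FPKM at steady state. In the cKO Fgd5 was 37.7-fold lower after irradiation, against 2.43-fold for Slamf1 and 5.55-fold for Kit. The small distances of the pairs with Fgd5 therefore do not show like fold changes. Flt3, with a mean of 4.35 FPKM, and Fgd5 were below the level set for the search of neighbours.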

How the data were processed

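The RNA-seq came from cells of the Lineage–Sca1+cKit+CD34–Flk2– gate, with 1 library for each of 4 groups taken from the sample labels. The deposited values are FPKM per Ensembl gene, made by the authors. Build mm10 and the tools HOMER, MACS2 (2.1.0), BWA (0.7.12-r1039) and Bowtie are listed, per the submitters' processing notes, for RNA-seq and ATAC-seq together. Which of them made the FPKM, the use of strand and the treatment of reads shared between genes were not given in the sources used here. Reads recovered in genes numbered 25099868 and 22126334 at steady state (wild type, cKO) and 24743164 and 20349074 after irradiation. They are the lowest set of whole reads that gives a gene's 4 values, given the library sizes the values imply (22146433 to 26031985), and were found for 30406 genes. They may be low by a whole factor, which would make an interval too wide, and rest on PCR reads without molecular identifiers. The procedure was tested on simulated data. Symbols were joined to 30231 of 30409 identifiers. For 6 symbols held by more than 1 identifier, the identifier of higher mean level was taken. Differences used a pseudocount of 1 FPKM.

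The members and gene lists were chosen with earlier results of these data known. Named genes are the members, up to 4 genes per list with the largest difference in a comparison, the 5 nearest profiles of each member with a mean of at least 5 FPKM, the stem cell markers Hlf and Mecom, and Twist1, Xist and Ddx3y. Ly6e, Slamf7, Cd84, Cd3g, Trbc1, Jchain, Egfl7, Stat5a, Stat5b, Sh2b3, Ptpn6, Siva1, Podxl, Rhag, Gfi1b and genes at 0 are named where they are the most abundant of a list, lie beside a member or complete a count, some after their values were seen, and 2 genes that the rule takes in are not reported here. Alternatives were a pseudocount of 0.1, a minimum of 5 FPKM in the higher library or none, median-of-ratios scaling, and scaling to recovered read totals. Python 3.11.15, pandas 2.3.3, numpy 2.4.6, SciPy 1.17.1 and matplotlib 3.10.9 were used.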

Additional observations from a re-analysis of the deposited data

Results flagged for a closer look

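For 2 members the cKO library lay on opposite sides of wild type at steady state and after irradiation, beyond counting error in each. The share of all genes that did so is not given here. The median of all genes went from 0.02 at steady state to -0.31 after irradiation. Relative to these medians Ly6a stood at -0.58 and 1.82, and Kit at 0.42 and -0.36. Over the pseudocounts and scalings the irradiated difference of Kit ran from -0.76 to -0.36. Ly6a was lower in the cKO at steady state and higher after irradiation, and the difference of the 2 differences was 2.07 on the log2(FPKM + 1) scale. Kit was higher in the cKO at steady state and lower after irradiation, with a difference of the 2 differences of -1.11. With 1 library per group neither was tested against replicate error.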

How the results depend on the processing

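No paired analysis was possible because each group held 1 library and no test was run. In all, 150 member values were recomputed with the smaller pseudocount of 0.1 and under both scalings (a minimum leaves a member's value as it is). The move was set against the counting interval, or against a fixed 0.1 for the difference of differences, which has no interval. By that measure 97 moved by less and 53 by more, and none of those called changed sign. Over all settings 4 of 50 differences of a member took both signs: Slamf1 between genotypes at steady state, and Cd34, Cd48 and Fgd5 in the difference of differences. With a minimum of 5 FPKM in the higher library, 3 members could be counted in the irradiated genotype comparison and 1 was higher, against 2 with the mean of 1 FPKM. With a pseudocount of 0.1 it was 4, and with read totals the difference of differences was lower for 0 members, against 1. Over all genes, the irradiated cKO had 429 genes higher than wild type, which became 284 at a minimum of 5 FPKM, 812 with none, 813 at a pseudocount of 0.1 and 746 with read totals, and 90 lower, which became 253 at the pseudocount of 0.1 and 49 with read totals. At steady state 86 genes were higher, 46 at the 5 FPKM minimum and 235 at the smaller pseudocount, and 224 were lower, 382 at the smaller pseudocount. After irradiation 2165 genes were lower in wild type, 1401 at the 5 FPKM minimum, and 1094 were higher in the cKO, 1807 without a minimum. The difference of differences was higher for 658 genes, 1107 without a minimum, and lower for 188, 293 without a minimum and 488 at the smaller pseudocount. Scaling also moved the share of called genes that were higher. With read totals it went from 27.7% to 39.1% between genotypes at steady state, from 82.7% to 93.8% in the irradiated pair and from 44.2% to 31.6% for irradiation in wild type. By median of ratios it went from 30.8% to 46.0% for irradiation in the cKO, and with read totals the median of all genes in the irradiated pair went from -0.31 to -0.01 on the log2 scale. Depth limits Cd34, Procr, Esam, Cd27 and Fgd5 after irradiation, with 1 to 162 reads.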
